A study of Glycine max with 6 samples.

Results

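Genes for the making and desaturation of fatty acids were compared between leaves of soybean sprayed with mesoporous silica nanoparticles (MSN) and control leaves, all from plants under saline-alkaline stress. Candidates were the 86 genes that the deposited table assigns to the KEGG maps of fatty acid biosynthesis or of unsaturated fatty acid biosynthesis. The rule left out 31 of them because the table also places them in elongation beyond the plastid products, in cutin, suberin and wax, oxylipin or alpha-linolenic acid pathways, in glycolysis or in the citrate cycle. It left out a further 5 whose counts over the 6 libraries summed to under 60. The remaining 50 genes, of 45967 in the table, are the members described here, and all 50 passed the filter on low counts. They lie on 16 chromosomes.

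Polyadenylated RNA of leaves from cultivar HN95, whose genotype label is WT in every library, was sequenced in 3 MSN and 3 control libraries. MSN plants received a foliar spray of 20 mg/L and were sampled 7 days later. The treatment labels of the MSN libraries read 20, 21 and 22 mg/L, but their titles name a single group, and they were kept as such. Both groups were under the same stress, in pots of 20 kg of soil mix given 3 L of a salt solution, which held NaCl and Na2CO3 at 40 mM each and NaHCO3 and Na2SO4 at 320 mM each. No unstressed leaves are among the libraries, and neither plant age nor the spray given to control leaves is stated. Whether libraries came from separate plants is also not stated, so each p measures only the spread between these libraries.

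In plants, fatty acids are built in the plastid on acyl carrier protein (ACP). Acetyl-CoA carboxylase makes malonyl-CoA, a malonyltransferase moves the malonyl group onto ACP, and a cycle of ketoacyl-ACP synthase, ketoacyl-ACP reductase, hydroxyacyl-ACP dehydratase and enoyl-ACP reductase lengthens the chain. A soluble desaturase turns stearoyl-ACP into oleoyl-ACP, and thioesterases free the finished acids, FATA-type enzymes acting mainly on oleoyl-ACP and FATB-type enzymes mainly on saturated chains. Acyl-CoA ligases activate the freed acids for use outside the plastid stroma, and membrane-bound desaturases add further double bonds to acids already placed in lipids. In leaves the products feed the galactolipids of the photosynthetic membranes, the cuticle and the precursors of jasmonate.

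Library totals ran from 63981150 to 67923813 counts in MSN and from 65537749 to 67795796 counts in control. Levels are given as CPM (counts scaled to library size, with TMM factors) for 1 gene across libraries, and as the authors' FPKM, which is scaled by gene length, between genes. A gene was called higher or lower when its edgeR quasi-likelihood test of MSN over control had a Benjamini-Hochberg adjusted p under 0.05 over the 39203 genes tested. Among all genes tested, 59.3% were called, 29.6% as higher and 29.7% as lower. Small counts in the table pile up at 4, so counting precision is lower than the totals alone would give. Which strand was counted, and how reads shared by near-identical copies were assigned, are not given, and soybean carries several copies of most of these genes, so the split between close copies is uncertain. Of the 50 members, 5 overlap another gene, 3 of them on the opposite strand.

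Genes for malonyl supply and for the elongation cycle were mostly lower in MSN leaves, with 9 of 12 and 9 of 15 members called lower, while 6 of 13 acyl-CoA ligases were called higher. Of the 50 members, 26 (52.0%) fell and 12 (24.0%) rose, against 29.7% and 29.6% of all genes tested, and 12 did not pass the test. The median log2 fold change of the members was -0.24, beside 0.01 over all genes tested. The MSN and control CPM values did not overlap in 41 members (82.0%), against 65.0% of all genes tested. Members were also more abundant, with a median of 13.1 mean FPKM against 4.54 over all genes tested, and these shares were not compared at matched level. Most differences between MSN and control were below 1 on the log2 scale. Falls of at least that size were found in 6 of 50 members, a larger share than the 7.01% of all genes tested. Rises of at least that size were found in 1 of 50, a smaller share than the 9.27% of all genes tested. Several members lie near that size, and with upper-quartile scaling 4 fell and 2 rose by as much. Without the 13 acyl-CoA ligases, 22 of 37 members fell and 6 rose. The 20 members with a plastid term in the table's Gene Ontology (GO) column had 13 falls and 4 rises, and the 30 without had 13 falls and 8 rises. That term is absent from the genes for biotin carboxylase, malonyltransferase, ketoacyl-ACP synthases I and II and enoyl-ACP reductase. The multifunctional carboxylase carries it, so the split follows annotation and does not separate plastid enzymes from others. Of the 25 members of higher mean FPKM, 17 fell and 6 rose, and of the 25 of lower mean FPKM, 9 fell and 6 rose.

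**Figure D1:**
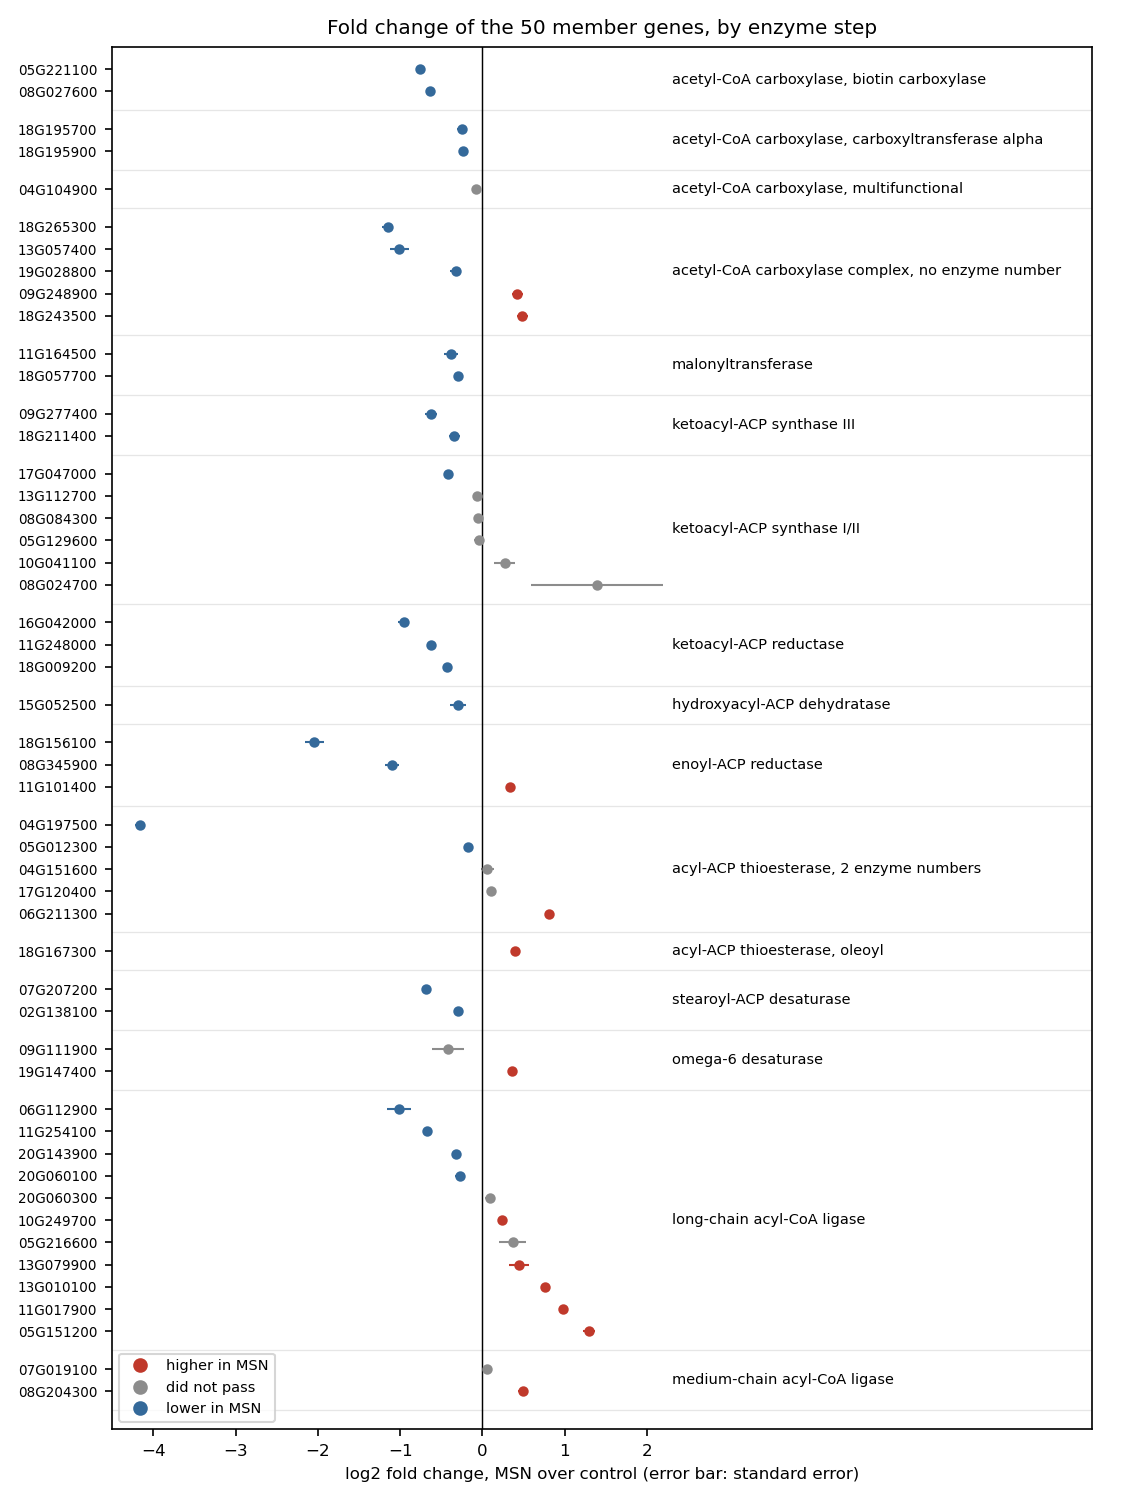
Log2 fold change, MSN over control, of each of the 50 members (point) with its standard error (bar), ordered by enzyme; red points passed the test as higher in MSN, blue as lower, and grey did not pass. Blue points fill most enzymes of chain building, the thioesterase GLYMA_04G197500 stands far to the left at -4.16, and 5 of the 12 red points are long-chain acyl-CoA ligases.

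The summed level of the members was 769, 767 and 774 FPKM in the MSN libraries, against 1000.1, 975 and 981 FPKM in the control libraries. Every MSN library lay below every control library, with a mean ratio of 0.781. A single thioesterase, GLYMA_04G197500, held a large part of that difference: without it the sums were 763 ± 4.35 FPKM in MSN and 870.2 ± 10.7 FPKM in control (SD, n = 3 each), a ratio of 0.877. Without it and the ligases, the other 36 members summed to 591 ± 4.95 FPKM in MSN and 712 ± 11.3 FPKM in control (SD, n = 3 each), a ratio of 0.831. As shares of all counts, the members took 0.217 to 0.218% in MSN libraries and 0.253 to 0.257% in control libraries. The replicates lay close together: the median coefficient of variation of a member over 3 libraries was 3.72% in MSN and 4.68% in control, beside 7.43% and 7.44% over all genes. The members are the more abundant set, and genes of matched level were not compared.

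**Figure D2:**
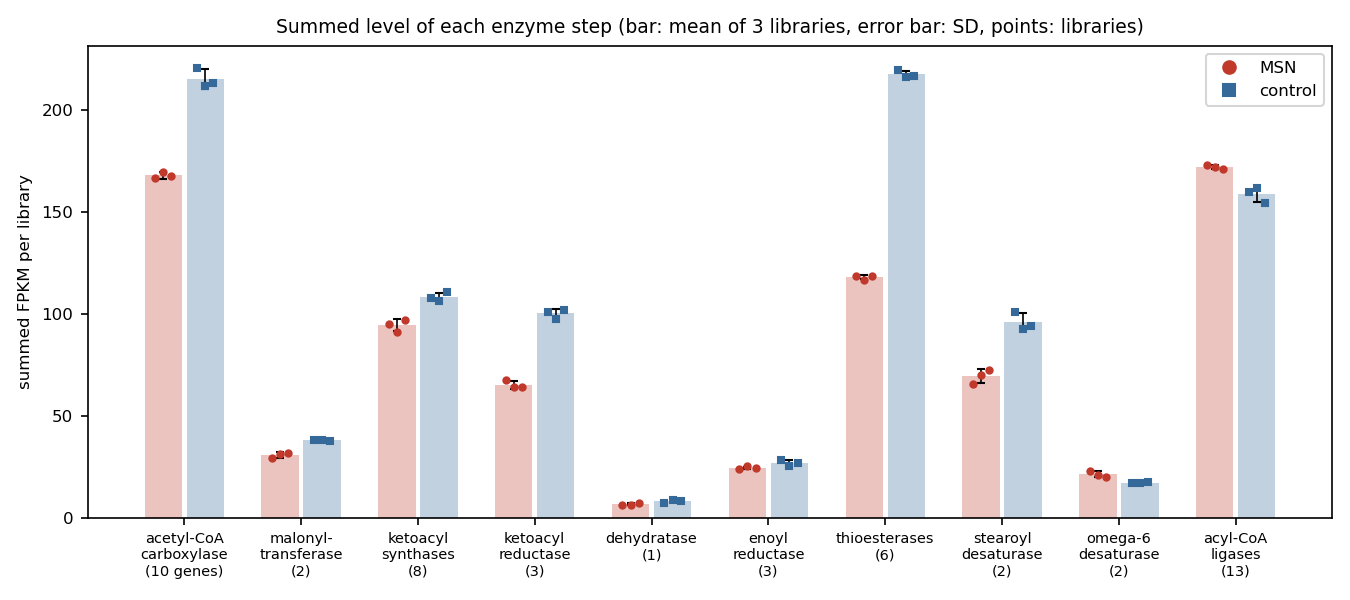
Summed FPKM of the members for each enzyme, with a point for each library, bars for the mean of 3 libraries and error bars for the SD, MSN (red circles) left of control (blue squares), on a linear axis from 0. The MSN points lie above the control points for the omega-6 desaturases and the acyl-CoA ligases, and below them for every other enzyme shown.

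Acetyl-CoA carboxylase supplies the malonyl-CoA for every round of chain building, and its genes were mostly lower in MSN leaves. Of its 10 members, 7 fell, 2 rose and the gene for the multifunctional form did not pass. Their summed level was 168 ± 1.55 FPKM in MSN and 215 ± 4.74 FPKM in control (SD, n = 3 each). Both genes for biotin carboxylase, the subunit that loads CO2 onto biotin, fell. GLYMA_05G221100 (chromosome 5, 40049855 to 40058109) had 63.1, 59.8 and 62.8 CPM in the MSN libraries, against 110.3, 101 and 104 CPM in the control libraries. The groups did not overlap, and the difference was a log2 fold change of -0.76 (SE 0.04, edgeR adjusted p = 4.67e-11). Its partner GLYMA_08G027600 had 60.4, 61.3 and 57.4 CPM in the MSN libraries, against 94.6, 94.9 and 89.8 CPM in the control libraries. That gene also fell in every MSN library relative to every control library, with a log2 fold change of -0.64 (SE 0.04, edgeR adjusted p = 4.38e-10). Of the summed FPKM of this pair, GLYMA_05G221100 gave 52.9% ± 1.44 in MSN and 55% ± 1.26 in control (SD, n = 3 each).

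The carboxyltransferase alpha subunit, with its beta partner, passes the carboxyl group to acetyl-CoA. Its genes lie close to each other on chromosome 18, GLYMA_18G195700 at 47022448 to 47028331 and GLYMA_18G195900 at 47054765 to 47060075. GLYMA_18G195700 had 81.2, 80.2 and 82.8 CPM in the MSN libraries, against 110.3, 89.3 and 90.2 CPM in the control libraries. The fall was small and control replicate 1 stood above the other control libraries (log2 fold change -0.25, SE 0.06, edgeR adjusted p = 0.00215). Without that library the log2 fold change was -0.14 (edgeR adjusted p = 0.0130). GLYMA_18G195900 had a log2 fold change of -0.24 (SE 0.04, edgeR adjusted p = 0.000135). A gene near them, GLYMA_18G196000, which carries a carboxylase term but is outside the KEGG maps, had a log2 fold change of -0.28 (SE 0.06, edgeR adjusted p = 0.000283).

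The 5 other carboxylase members are placed in the complex by the table without an enzyme number, and they moved in both directions. GLYMA_18G265300 fell most: it had 13.5, 13.5 and 14.2 CPM in the MSN libraries, against 29.1, 29.9 and 32.6 CPM in the control libraries. Its control level was above its MSN level by over 1 log2 unit (log2 fold change -1.15, SE 0.07, edgeR adjusted p = 3.53e-11). GLYMA_13G057400 also fell, with a log2 fold change of -1.01 (SE 0.12, edgeR adjusted p = 6.34e-07), and GLYMA_19G028800 less so, with a log2 fold change of -0.33 (SE 0.07, edgeR adjusted p = 0.000347). The only member with a symbol in the table, GLYMA_18G243500 (ACCB-1), which RefSeq also lists as BCCP, the biotin carboxyl carrier protein of the complex, rose. It had 28.1, 27.4 and 28.2 CPM in the MSN libraries, against 20.9, 18 and 20.9 CPM in the control libraries. All 3 MSN values lay above the control values, with a log2 fold change of 0.48 (SE 0.07, edgeR adjusted p = 5.44e-06), and the gene overlaps another on its own strand. GLYMA_09G248900 rose by a similar amount and had 32.4, 37.6 and 38.1 CPM in the MSN libraries, against 28.6, 25.9 and 26.04 CPM in the control libraries. Its share of the summed FPKM of these 5 genes was 42.8% ± 1.71 in MSN and 28.9% ± 1.55 in control (SD, n = 3 each), while that of GLYMA_18G265300 was 13.5% ± 0.556 in MSN and 27.2% ± 1.41 in control (SD, n = 3 each). The 5 genes together had 60.97 ± 2.66 FPKM in MSN and 67.2 ± 1.72 FPKM in control (SD, n = 3 each).

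The multifunctional carboxylase carries all the activities on a single chain and in most plants works in the cytosol. Its member GLYMA_04G104900 carries a plastid term in the GO column, so its place is not settled here. This gene had 111, 120.3 and 111 CPM in the MSN libraries, against 125, 116 and 122 CPM in the control libraries. The groups overlapped and the gene did not pass, with a log2 fold change of -0.08 (SE 0.04, edgeR adjusted p = 0.108). Leaving out MSN replicate 2 or control replicate 2 gave edgeR adjusted p = 0.0234 and 0.0403 at log2 fold changes of -0.13 and -0.11. A gene with a carboxylase term outside the KEGG maps, GLYMA_06G105900, had 173, 175 and 174 CPM in the MSN libraries, against 279, 257 and 271 CPM in the control libraries. It did pass as lower, with a log2 fold change of -0.63 (SE 0.04, edgeR adjusted p = 4.55e-11).

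Malonyl-CoA:ACP malonyltransferase hands the malonyl group to ACP, and both of its genes fell. GLYMA_18G057700, which gave 88.4% ± 0.716 in MSN and 87.8% ± 0.113 in control (SD, n = 3 each) of their summed FPKM, had 47.7, 50.7 and 51.9 CPM in the MSN libraries, against 62.5, 61.3 and 61.5 CPM in the control libraries. The drop was modest and without overlap (log2 fold change -0.30, SE 0.05, edgeR adjusted p = 1.74e-05). GLYMA_11G164500 had a log2 fold change of -0.38 (SE 0.08, edgeR adjusted p = 0.0007).

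The elongation cycle was lower as well, with 9 of its 15 members falling and 1 rising. Their summed level was 191 ± 3.69 FPKM in MSN and 243 ± 5.02 FPKM in control (SD, n = 3 each). The ketoacyl-ACP synthases join the malonyl unit to the growing chain. Synthase III, which starts the chain from acetyl-CoA, fell in both genes. GLYMA_09G277400 had 17.04, 19.9 and 20.99 CPM in the MSN libraries, against 29.4, 28.8 and 31.5 CPM in the control libraries. That gene had a log2 fold change of -0.63 (SE 0.07, edgeR adjusted p = 6.41e-07), and GLYMA_18G211400 had a log2 fold change of -0.34 (SE 0.06, edgeR adjusted p = 0.000148).

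Of the 6 members for synthases I and II, which carry out the later condensations, only GLYMA_17G047000 passed the test. It had 54.4, 53.6 and 51.5 CPM in the MSN libraries, against 66.7, 74.4 and 72.2 CPM in the control libraries. MSN values lay below control values, with a log2 fold change of -0.42 (SE 0.05, edgeR adjusted p = 6.16e-07). GLYMA_08G084300 held the largest share of the FPKM of this type, 45.7% ± 0.527 in MSN and 44.02% ± 1.37 in control (SD, n = 3 each). It had 67.1, 64.4 and 69.6 CPM in the MSN libraries, against 72.5, 66.9 and 69.1 CPM in the control libraries. These groups overlapped, and its log2 fold change of -0.05 (SE 0.05, edgeR adjusted p = 0.357) gave a 95% interval of -0.14 to 0.04. GLYMA_05G129600 and GLYMA_13G112700 did not pass either, at log2 fold changes of -0.04 and -0.07. GLYMA_10G041100 had a log2 fold change of 0.27 (SE 0.12, edgeR adjusted p = 0.0696), and leaving out MSN replicate 2 gave edgeR adjusted p = 0.0280 at 0.36. It also passed with upper-quartile scaling and with DESeq2. GLYMA_08G024700 is the member just inside the count minimum, with 86 counts over the 6 libraries, and its levels are near the limit of detection. The 5 candidates outside the minimum had sums of 4 to 24 counts, and the member next above it, GLYMA_09G111900, had 1378.

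Ketoacyl-ACP reductase carries out the first reduction of each round, and its 3 genes all fell. Their summed level was 65.1 ± 2.10 FPKM in MSN and 100.2 ± 2.29 FPKM in control (SD, n = 3 each). GLYMA_11G248000 had 55.2, 53.1 and 52.99 CPM in the MSN libraries, against 84.5, 77.9 and 86.8 CPM in the control libraries. No MSN value reached the control values (log2 fold change -0.63, SE 0.05, edgeR adjusted p = 1.78e-09). GLYMA_16G042000 fell more, with 18.8, 17.7 and 17.96 CPM in the MSN libraries, against 36.4, 31.3 and 38.1 CPM in the control libraries. Its log2 fold change of -0.96 (SE 0.07, edgeR adjusted p = 1.23e-09) came near a halving of the level. GLYMA_18G009200 had a log2 fold change of -0.43 (SE 0.05, edgeR adjusted p = 6.9e-07). The single hydroxyacyl-ACP dehydratase member, GLYMA_15G052500, which removes water from the chain, had 10.4, 10.2 and 11.8 CPM in the MSN libraries, against 12.2, 13.98 and 13.8 CPM in the control libraries. Its fall was the one of highest adjusted p among the members called lower (log2 fold change -0.30, SE 0.10, edgeR adjusted p = 0.0116), and the gene overlaps another on the opposite strand.

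Enoyl-ACP reductase closes the round, and its 3 genes split. GLYMA_18G156100 fell most among the genes of the cycle, with 3.87, 3.42 and 3.74 CPM in the MSN libraries, against 16.5, 14.4 and 14.5 CPM in the control libraries. The control level was several times the MSN level in each library (log2 fold change -2.04, SE 0.11, edgeR adjusted p = 1.8e-11). GLYMA_08G345900 had 7.94, 8.14 and 8.07 CPM in the MSN libraries, against 17.5, 16.98 and 17.3 CPM in the control libraries. It also fell by over 1 log2 unit, with a log2 fold change of -1.10 (SE 0.08, edgeR adjusted p = 1.52e-09). GLYMA_11G101400, the most abundant of the 3, rose and had 71.03, 75.9 and 72.9 CPM in the MSN libraries, against 61.9, 53.04 and 59.5 CPM in the control libraries. The groups did not overlap (log2 fold change 0.33, SE 0.05, edgeR adjusted p = 3.08e-05), and the gene gave 84.6% ± 0.607 in MSN and 60.8% ± 1.24 in control (SD, n = 3 each) of the summed FPKM of the 3. The sum itself was 24.5 ± 0.598 FPKM in MSN and 26.9 ± 1.55 FPKM in control (SD, n = 3 each). GLYMA_11G101400 overlaps a gene on the opposite strand, and GLYMA_18G156100 overlaps one on its own strand.

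**Figure D3:**
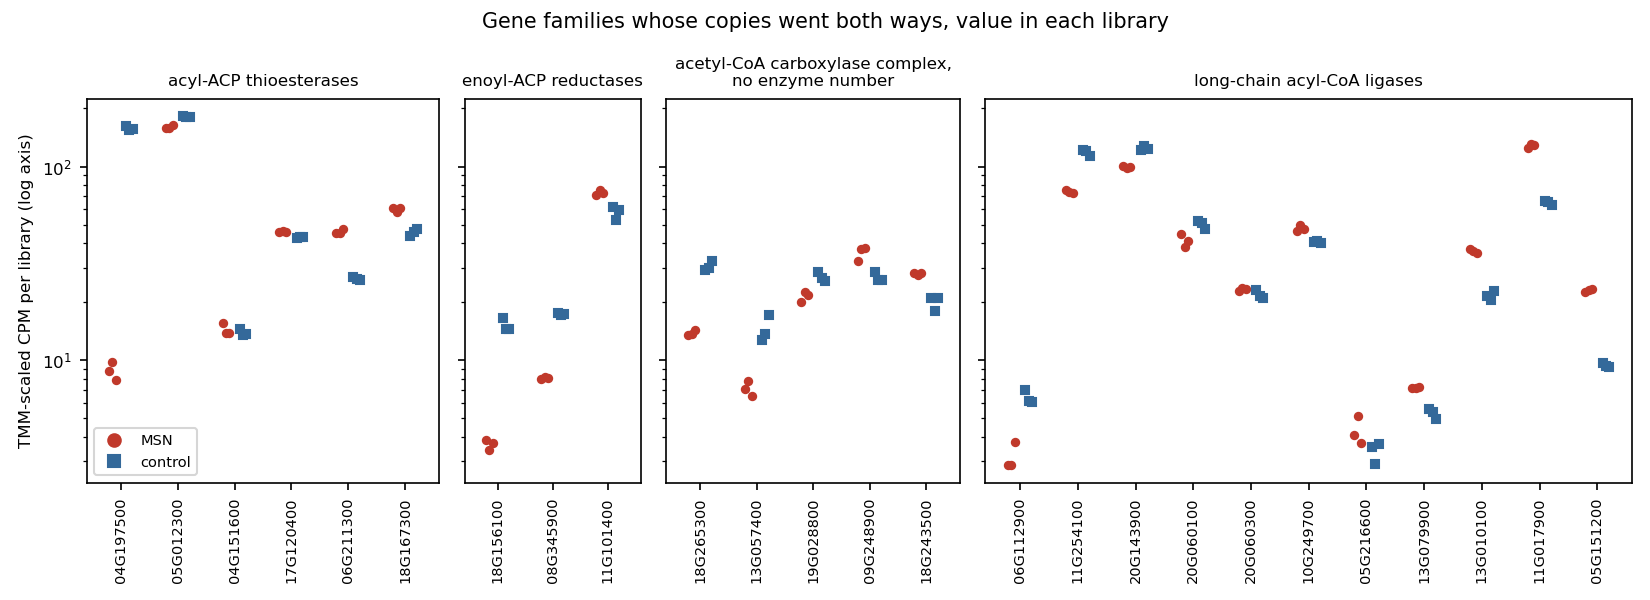
CPM in each library (log axis) of every member of 4 enzyme groups whose copies were called in both directions, MSN (red circles) left of control (blue squares). In each of the 4 panels some copies lie below their control values and others above, with the widest gap in the thioesterase GLYMA_04G197500.

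The widest change of any member was in an acyl-ACP thioesterase. GLYMA_04G197500 (chromosome 4, 46955006 to 46958396, minus strand), which the table links to the orthology group of FATB-type enzymes, had 8.78, 9.75 and 7.88 CPM in the MSN libraries, against 162, 154 and 157 CPM in the control libraries. All 3 MSN libraries were far below the control libraries, with a log2 fold change of -4.16 (SE 0.06, edgeR adjusted p = 2.14e-19), a mean ratio of 0.056. Its level was 6.45 ± 0.705 FPKM in MSN and 115 ± 2.45 FPKM in control (SD, n = 3 each). By FPKM it ranked 37 among the 50 members in MSN and 1 in control. Among the 1568 genes of the table with a mean of at least 50 FPKM over all 6 libraries, its fall ranked 3 by size. It passed that cut only through its control level, so the rank leaves out strong falls from lower control levels. It gave 5.47% ± 0.640 in MSN and 52.9% ± 0.713 in control (SD, n = 3 each) of the summed FPKM of the 6 thioesterase members.

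No other thioesterase member had a fall of that size. GLYMA_05G012300, also of FATB type, had 157, 158 and 164 CPM in the MSN libraries, against 182, 179 and 180.2 CPM in the control libraries. It fell slightly, with a log2 fold change of -0.18 (SE 0.04, edgeR adjusted p = 0.000314). GLYMA_06G211300 rose, with 45.5, 45.5 and 47.3 CPM in the MSN libraries, against 26.8, 26.2 and 25.9 CPM in the control libraries. No control value reached the MSN values (log2 fold change 0.81, SE 0.05, edgeR adjusted p = 1.16e-10). The single FATA-type member, GLYMA_18G167300, had 61.03, 57.8 and 60.95 CPM in the MSN libraries, against 43.7, 45.98 and 47.6 CPM in the control libraries. It rose too, with a log2 fold change of 0.39 (SE 0.05, edgeR adjusted p = 1.34e-06). GLYMA_17G120400 and GLYMA_04G151600 did not pass, at log2 fold changes of 0.10 and 0.06 and edgeR adjusted p of 0.0613 and 0.566. With upper-quartile scaling, no filter on low counts, counts divided by 4 or DESeq2, GLYMA_17G120400 did pass as higher. The 6 genes summed to 118 ± 1.00 FPKM in MSN and 217 ± 1.69 FPKM in control (SD, n = 3 each). The 5 without GLYMA_04G197500 summed to 111 ± 1.64 FPKM in MSN and 102 ± 0.764 FPKM in control (SD, n = 3 each), so the lower total in MSN leaves rested on that gene.

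Stearoyl-ACP desaturase puts the first double bond into the chain while it is still on ACP, and both of its genes fell. GLYMA_02G138100 had 74.5, 75.9 and 81.7 CPM in the MSN libraries, against 101, 89.5 and 95.3 CPM in the control libraries. It was among the most abundant members, at 41.3 ± 1.79 FPKM in MSN and 50.6 ± 2.69 FPKM in control (SD, n = 3 each), and had a log2 fold change of -0.30 (SE 0.05, edgeR adjusted p = 4.15e-05). GLYMA_07G207200 fell more, with 47.6, 54.9 and 54.5 CPM in the MSN libraries, against 88.5, 82.2 and 81.8 CPM in the control libraries. MSN and control values were apart in both genes (log2 fold change -0.68, SE 0.05, edgeR adjusted p = 3.59e-09). Their summed level was 69.4 ± 3.40 FPKM in MSN and 95.8 ± 4.36 FPKM in control (SD, n = 3 each).

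The omega-6 desaturases, membrane-bound enzymes that turn oleate into linoleate, gave 1 rise and 1 gene that did not pass. GLYMA_19G147400 rose and had 120.3, 112 and 109 CPM in the MSN libraries, against 88.1, 88 and 90.3 CPM in the control libraries. Every MSN library was above every control library, with a log2 fold change of 0.35 (SE 0.04, edgeR adjusted p = 1.18e-06). GLYMA_09G111900, at a mean below 1 FPKM, had 3.64, 3.14 and 2.15 CPM in the MSN libraries, against 4.37, 3.26 and 4.31 CPM in the control libraries. Its groups overlapped and it did not pass (log2 fold change -0.42, SE 0.19, edgeR adjusted p = 0.0657), whereas leaving out MSN replicate 1 or control replicate 2 gave edgeR adjusted p = 0.0215 and 0.0230. With DESeq2 and with counts divided by 4 it passed too. The other candidates of this enzyme, GLYMA_10G278000 and GLYMA_20G111000, had 12 and 4 counts over all libraries and are not members.

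Acyl-CoA ligases, which activate free fatty acids, were the largest enzyme group and the one with the most rises. Of the 13 ligases, 6 rose, 4 fell and 3 did not pass, against 29.6% higher and 29.7% lower among all genes tested. Their summed level was 173, 172 and 171 FPKM in the MSN libraries, against 159.5, 162 and 154 FPKM in the control libraries, a mean ratio of 1.09. Among the 11 long-chain ligases, GLYMA_05G151200 rose most, with 22.5, 23.1 and 23.2 CPM in the MSN libraries, against 9.61, 9.26 and 9.23 CPM in the control libraries. It was called higher by more than 1 log2 unit (log2 fold change 1.29, SE 0.07, edgeR adjusted p = 1.84e-11). GLYMA_11G017900 had 125, 130.0 and 129 CPM in the MSN libraries, against 66.3, 65.4 and 63.2 CPM in the control libraries. Its MSN level was close to double that of control (log2 fold change 0.98, SE 0.04, edgeR adjusted p = 2.67e-13), and upper-quartile scaling gave a log2 fold change of 1.02. GLYMA_13G010100, GLYMA_13G079900 (which overlaps a gene on the opposite strand) and GLYMA_10G249700 rose by 0.76, 0.44 and 0.24 on the log2 scale.

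Other long-chain ligases fell. GLYMA_11G254100 had 75.3, 74 and 73.2 CPM in the MSN libraries, against 122, 120.0 and 114 CPM in the control libraries. The groups were well apart (log2 fold change -0.68, SE 0.04, edgeR adjusted p = 6.93e-11). GLYMA_20G143900 had 100.4, 97.99 and 98.99 CPM in the MSN libraries, against 122, 128 and 122 CPM in the control libraries. It fell by less, with a log2 fold change of -0.33 (SE 0.04, edgeR adjusted p = 7.51e-07). GLYMA_06G112900, of low level, had a log2 fold change of -1.01 (SE 0.15, edgeR adjusted p = 1.13e-05), and limma on log2(FPKM + 1) gave -0.61. GLYMA_20G060100 had a log2 fold change of -0.28 (SE 0.06, edgeR adjusted p = 0.000478), and its near neighbour GLYMA_20G060300 did not pass, at 0.09. GLYMA_05G216600 did not pass either, with a log2 fold change of 0.37 (SE 0.16, edgeR adjusted p = 0.0596). Without MSN replicate 3 it passed (edgeR adjusted p = 0.0345), as it did with upper-quartile scaling, counts divided by 4 and DESeq2. Of the 2 medium-chain ligases, GLYMA_08G204300 rose with a log2 fold change of 0.49 (SE 0.06, edgeR adjusted p = 3.92e-07), and GLYMA_07G019100 did not pass, at 0.06.

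Genes that carry the same enzyme terms but lie outside the KEGG maps or were left out by the rule give the setting: 47 are in the table and 39 were tested, of which 15 rose, 15 fell and 9 did not pass. Their median absolute log2 fold change was 0.77, beside 0.40 in the members and 0.39 in all genes tested. Calls over all genes tested were 29.6% higher and 29.7% lower. An acyl-ACP hydrolase outside the maps, GLYMA_06G168000 (chromosome 6, 14022437 to 14026274), had 6.28, 6.26 and 6.66 CPM in the MSN libraries, against 107, 101 and 101 CPM in the control libraries. Its log2 fold change of -4.01 (SE 0.06, edgeR adjusted p = 9.93e-20) was close in size to that of the member GLYMA_04G197500. None of the acyl carrier proteins themselves are members; of 15 tested genes with acyl carrier terms, 5 rose, 5 fell and 5 did not pass. GLYMA_15G098500 had 16.1, 15.04 and 14.7 CPM in the MSN libraries, against 133, 125 and 129 CPM in the control libraries. In contrast, GLYMA_05G201300 had 159, 150.3 and 158 CPM in the MSN libraries, against 43.1, 46.7 and 41.7 CPM in the control libraries. GLYMA_08G008800 rose as well, with a log2 fold change of 2.20 (SE 0.06, edgeR adjusted p = 1.08e-15). The summed level of the genes with acyl carrier terms ran from 556 to 591 FPKM in MSN and from 589 to 594 FPKM in control.

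Membrane desaturases outside the rule also moved in both directions: of 11 tested, 6 rose, 4 fell and 1 did not pass, with sums of 107 to 113 FPKM in MSN and 173 to 174 FPKM in control. Of the 3 genes in the omega-3 desaturase orthology group, whose enzymes make linolenate from linoleate, GLYMA_18G202600 fell and had 24.3, 23.5 and 21.9 CPM in the MSN libraries, against 98.3, 96.5 and 99.1 CPM in the control libraries. The others of that orthology group, GLYMA_03G056700 and GLYMA_02G227200, rose by 0.45 and 0.66 on the log2 scale. The most abundant of the 11 by mean FPKM, GLYMA_07G151300, has no orthology group and fell. Its log2 fold change was -2.19 (SE 0.06, edgeR adjusted p = 4.38e-16).

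**Figure D4:**
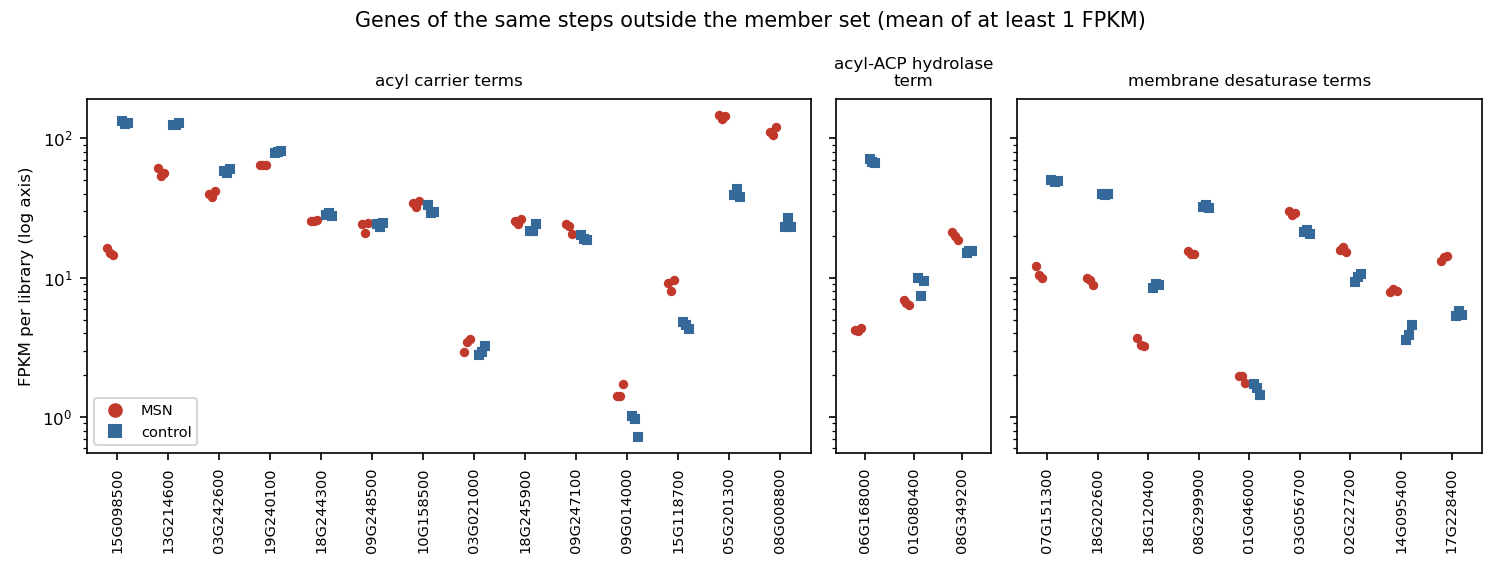
FPKM in each library (log axis) of genes outside the rule with acyl carrier, acyl-ACP hydrolase or membrane desaturase terms and a mean of at least 1 FPKM, MSN (red circles) left of control (blue squares). The acyl-ACP hydrolase GLYMA_06G168000 is far lower in MSN, and genes with acyl carrier terms lie both below and above their control values.

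Pathways around these genes were counted in the same way, on lists that overlap one another and leave the members out. The counts stand beside 29.6% called higher and 29.7% called lower over all genes tested. Of 114 other genes with fatty acid biosynthesis terms, 43 rose and 43 fell, with a median log2 fold change of 0.05. In fatty acid elongation, which makes very-long-chain acids for waxes, 19 of 37 rose and 10 fell. In alpha-linolenic acid metabolism, the route to jasmonate, 36 of 66 fell and 10 rose, and in fatty acid degradation 29 of 55 fell and 14 rose. In pyruvate metabolism, which supplies acetyl-CoA, 55 of 107 fell and 25 rose. Glycerolipid metabolism, which uses the finished acids, had 40 rises and 39 falls among 116, and glycerophospholipid metabolism had 44 rises and 54 falls among 152. Biotin metabolism, which provides the carboxylase cofactor, was counted in a single list with lipoic acid metabolism, which had 5 rises and 2 falls among 11.

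Lists named for cell types were taken by annotation terms alone. The leaf mesophyll list holds genes for photosynthetic antenna proteins and Rubisco activity. The vascular list holds genes with phloem and xylem development terms, and the epidermis list genes with cuticle, wax and cutin terms. Their counts are therefore of those genes and do not measure numbers of cells. Over all genes tested, 29.6% were called higher and 29.7% lower. Of 29 leaf mesophyll markers, 26 rose and 2 fell, and their summed level ran from 25882 to 26740 FPKM in MSN and from 12695 to 13224 FPKM in control. Of 40 phloem and xylem markers 21 rose and 2 fell, at 89.3 to 97.3 FPKM in MSN and 63.7 to 66.2 FPKM in control. Of 28 epidermis and cuticle markers 14 rose and 7 fell, at 239.6 to 248 FPKM in MSN and 164 to 173 FPKM in control. Of 16 guard cell markers 4 rose and 1 fell, at 25.8 to 27.4 FPKM in MSN and 24.9 to 28.0 FPKM in control. Of 48 genes with the seed storage term 14 rose and 12 fell, at 2259.9 to 2334 FPKM in MSN and 1283 to 1315 FPKM in control. Among genes of the meristem, pollen and root terms, 4 of 6, 9 of 20 and 1 of 2 rose, and 2, 4 and 1 fell. No gene of the table is at 0 in all libraries, so the presence of marker counts tells nothing about which cells were sampled. The part of the marker differences in the members' results was not tested. In whole leaves, fewer cells of a type and less RNA per cell cannot be told apart.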

How the data were processed

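Polyadenylated RNA from soybean leaves was measured in 3 MSN and 3 control libraries, grouped by the sample titles. Per the file headers, the table the authors deposited holds a raw count and an FPKM value (scaled by the length of the gene and the size of the library). The submitters' processing notes name DESeq2 1.34.0 and R 4.1.2 without a role. The sources used here give no aligner, counter, strand setting, genome build or annotation, and coordinates and identifiers are those of the table. The test was edgeR's quasi-likelihood test on the counts (version 4.0.16, R 4.3.3; filterByExpr, TMM scaling, 2-sided), adjusted by Benjamini-Hochberg over 39203 genes, without a fold threshold. The script was tested on simulated data. SEs are the log2 fold change divided by the square root of F, and intervals are 1.96 SE either way. Enzymes were assigned by KEGG orthology where given, in place of GO terms, because all 6 thioesterases also carry an acyl carrier term. The 5 carboxylase members without an enzyme number and the 2 medium-chain ligases have no orthology group and were assigned by GO terms. Members and lists were chosen with earlier results of these data known. Genes given in full are the most abundant member of each enzyme, the 5 most abundant members (both by mean FPKM over all 6 libraries), the 8 largest rises and falls at 1 FPKM or more without overlap, the extremes of each enzyme, and copies called in opposite directions; other members and genes outside the rule were named after their values were seen. Replicate pairs differed by 5.76 to 8.70 times Poisson variance, and no pair held the same values. Alternatives were other scalings, filters, tools, thresholds and libraries left out.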

Additional observations from a re-analysis of the deposited data

How the results depend on the processing

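Of the 38 members called, 0 lost their call or changed direction under 14 other settings, the fold threshold aside. These were RLE and upper-quartile scaling, no filter on low counts, counts divided by 4, DESeq2, limma on log2(FPKM + 1) and on log2(FPKM + 0.1), each of the 6 libraries left out, and the replicate block. Under them, 5 members outside the 38 passed at least once. Rises ranged from 12 to 15 and falls from 26 to 28; DESeq2 called 15 and 27. Leaving out a library gave 12 to 13 rises and 26 to 28 falls. Asking for a change of at least 1 log2 unit left 1 rise and 6 falls. Counted under the other settings, which was added after seeing the data, that threshold gave 1 to 2 rises and 3 to 7 falls, with 2 and 4 under upper-quartile scaling, 1 and 3 by limma on log2(FPKM + 1), and 1 and 5 to 7 with a library left out. The fit with the replicate block gave 12 rises and 26 falls. Same-numbered libraries deviated together only weakly (correlations 0.0118 to 0.0181, each highest with its own number), so the numbers were not taken as pairs. Scaling moved the median of all genes by at most 0.044 log2 units, which is as large as the smallest fold changes of members that did not pass. GLYMA_08G024700, of 86 counts, is limited by depth and was not tested after division of counts by 4. Small counts pile up at 4 (17.7 to 19.0% of counts from 1 to 12), so intervals on low members may cover less than the true counting error. The coverage of the intervals was not tested.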

Other observations

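The strong fall of GLYMA_04G197500 stood beside mixed neighbours on chromosome 4. Of the 8 tested genes nearest to it in order, GLYMA_04G197100 and GLYMA_04G197600 fell by 1.74 and 1.72 on the log2 scale, GLYMA_04G197300 rose by 2.03, and the other 5 did not pass (edgeR, adjusted over all genes). These neighbours were named after their values were seen.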
